A study of Mus musculus with 20 samples.

Results

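The 10 genes described here encode nuclear receptors other than the liver X receptors (LXR): Nr4a1, Nr4a2, Nr4a3, Rxra, Rara, Pparg, Ppard, Nr1d1, Nr1d2 and Vdr. They were chosen by name, and each was read from the RefSeq transcript of that symbol with the highest total read count. All 10 were found among the 24342 gene symbols of the deposited read count table, and 9 passed a filter on low counts that kept 12013 genes. Vdr failed it. Nr4a3 passed only through its libraries from LPS-treated cells, so it had to be high after LPS to be tested at all.

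Nuclear receptors are transcription factors, and many of them are switched on by small fat-soluble molecules that enter the cell. The retinoid X receptor RXRα, the product of Rxra, is the common partner of the retinoic acid, vitamin D, LXR and peroxisome proliferator-activated (PPAR) receptors, and binds DNA together with them. Receptors of the NR4A family need no known hormone and are made within minutes to hours of a signal, as immediate-early genes. REV-ERBα and REV-ERBβ, made from Nr1d1 and Nr1d2, bind haem, recruit corepressors and form a negative arm of the circadian clock. In macrophages, PPARγ, LXR and RXR are known for control of lipid handling, and REV-ERBs for repression of inflammatory genes.

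RNA was sequenced from macrophages that C57BL/6 bone marrow cells formed over 7 to 8 days, fed with 15% L929-conditioned medium as a source of growth factor, while 1 µM SGC0946 or the solvent DMSO was present. SGC0946 inhibits DOT1L, the enzyme that methylates lysine 79 of histone H3. The 20 libraries formed 6 groups: SGC0946+LPS, DMSO+LPS, SGC0946+GW3965 and DMSO+GW3965 with 3 libraries each, and unstimulated SGC0946 and DMSO cells with 4 libraries each. LPS, a bacterial cell wall component sensed by TLR4, was given at 10 ng/mL for 3 h, and GW3965, a synthetic LXR agonist, at 2 µM for 17 h. All groups were thus cultured primary cells of 1 strain, and an unstimulated group served both stimuli although their durations differ. Replicate numbers name mice, so a mouse gave cells to several groups.

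Depth was 8.17 to 13.33 M counts per library in the table used (median 10.4 M). Levels are given in CPM, counts scaled to a library size of 1 M, after TMM scaling of library size, with 1 SD over libraries; changes are log2 fold changes with 1 SE, called at an adjusted p under 0.05 (edgeR, quasi-likelihood F test, Benjamini-Hochberg over 12013 genes). All 8 macrophage markers checked were measured, with a summed level of 12080 to 20700 CPM over the 20 libraries. Markers of adipocytes, a tissue known for Pparg, summed to 0.273 CPM at most, with at least 3 of the 4 at 0 in every group. The 14 neutrophil and granulocyte markers summed to 18.9 to 51.7 CPM in the SGC0946 arm, against 46.6 to 105.6 CPM in the DMSO arm, and in each condition the arms did not overlap. In bulk RNA, fewer cells of a type and less RNA per cell cannot be told apart.

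The promoters of the NR4A genes are shown because these genes are the members that rose after LPS or are known as immediate-early genes, and because their promoters share a short motif. Each stretch is taken from the 250 bases before an annotated transcript start (RefSeq, GRCm38.p6) and reads 5′ to 3′ on the gene's strand. Capitals mark TGACG or its reverse complement, CGTCA, the short core of the cAMP response element, which CREB family factors bind. Nr4a1 is shown at chr15:101266596-101266845 on the plus strand, Nr4a2 at chr2:57124004-57124253 on the minus strand, and Nr4a3 at chr4:48045055-48045152 on the plus strand. The Nr4a3 stretch was ended where an annotated exon begins, so 98 of its 250 bases and 3 of its 4 matches are shown. It thus stops short of the transcript start used, at 48045305. The RefSeq gene begins at 48045078 for Nr4a3, within the stretch, and at 101253902 for Nr4a1, before it. Bases of these stretches therefore lie inside the annotated gene.
Nr4a1: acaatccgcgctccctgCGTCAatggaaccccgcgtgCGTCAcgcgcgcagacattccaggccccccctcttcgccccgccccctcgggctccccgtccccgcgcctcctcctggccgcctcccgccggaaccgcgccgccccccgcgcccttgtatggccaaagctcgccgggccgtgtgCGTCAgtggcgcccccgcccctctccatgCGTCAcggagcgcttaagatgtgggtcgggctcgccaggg
Nr4a2: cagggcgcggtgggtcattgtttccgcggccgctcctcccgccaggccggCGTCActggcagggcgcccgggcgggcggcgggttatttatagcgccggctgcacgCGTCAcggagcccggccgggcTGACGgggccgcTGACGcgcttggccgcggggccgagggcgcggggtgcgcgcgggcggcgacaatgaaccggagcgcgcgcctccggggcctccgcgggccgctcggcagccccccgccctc
Nr4a3: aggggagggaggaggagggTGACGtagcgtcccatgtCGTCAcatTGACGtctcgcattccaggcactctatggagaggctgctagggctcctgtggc

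Each of the 3 NR4A windows of 250 bases held 4 matches to TGACG on either strand. Among 32817 promoter windows of that length, 17.7% held at least 1 match and 0.137% held 4 or more. The number 4 is that of the NR4A windows themselves, so this share is a description. Other motifs were searched as well. The NF-kB motif and CACGTG, the E-box, had no match in the NR4A windows, while GGGCGG, the GC box, matched in each. The GC box also matched in windows of other receptors and in 32.7% of all windows. Of the 13 windows of the other 7 receptors, 1, a Rara window, held a match to TGACG. The complete palindrome TGACGTCA, which contains the core on both strands, was in no window of the 10 genes and in 1.55% of all windows. A match is a run of letters and was not tested as a binding site. Besides the chromosomes above, Rxra is on chromosome 2, Rara and Nr1d1 on 11, Pparg on 6, Ppard on 17, Nr1d2 on 14 and Vdr on 15.

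In unstimulated DMSO cells the receptors spanned a wide range of levels, compared here with the deposited RPKM values (reads scaled to transcript length and library size). Pparg had 17.2 ± 0.66 RPKM, Nr1d2 16.4 ± 0.75 and Ppard 15.8 ± 0.37 (SD, n = 4), and these neighbours overlapped between libraries. Rxra at 11.4 ± 0.66 RPKM, Rara at 5.50 ± 0.56 RPKM, Nr1d1 at 2.82 ± 0.51 RPKM and Nr4a1 at 0.765 ± 0.13 RPKM followed, each apart from the one before. Nr4a2, Vdr and Nr4a3 were lowest, at 0.182 ± 0.12, 0.0875 ± 0.045 and 0.0210 ± 0.0094 RPKM. After LPS this order was different. Nr4a3 led the 10 genes in SGC0946+LPS cells, at 10.7 ± 1.9 RPKM against 7.48 ± 0.42 RPKM for Nr1d2, and in DMSO+LPS cells it was second, at 6.37 ± 0.28 RPKM after 9.15 ± 0.77 RPKM for Nr1d2 (SD, n = 3). Rxra, Rara, Pparg and Ppard were between 0.721 and 2.11 RPKM in both LPS groups.

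**Figure D1:**
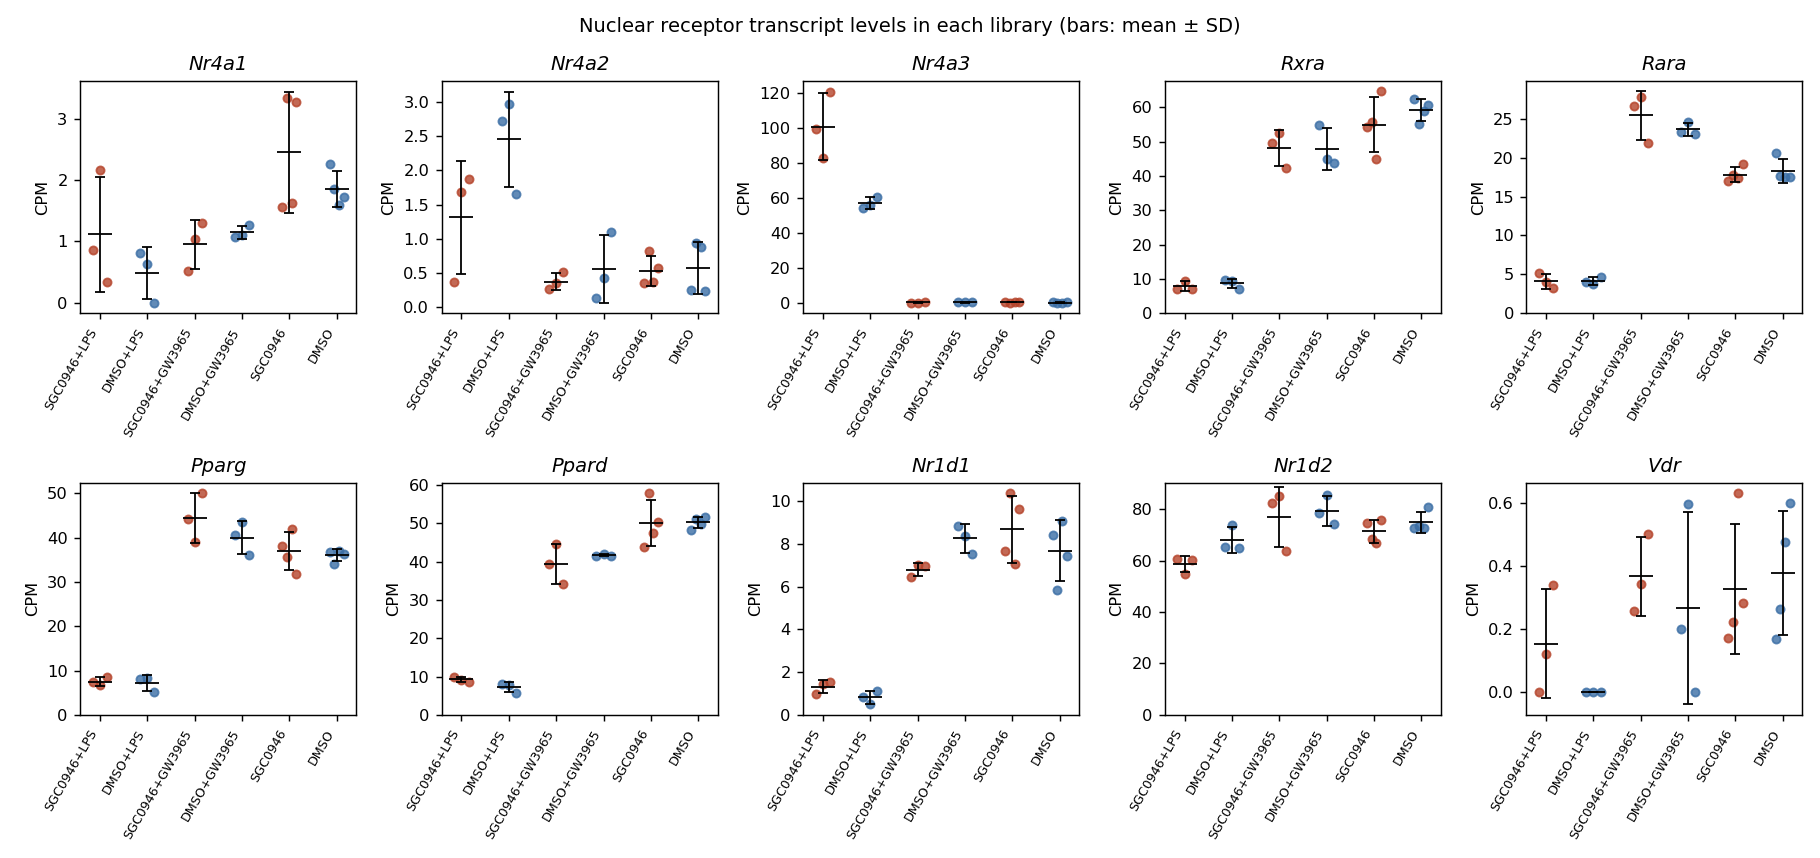
Level of each receptor transcript in CPM (linear vertical axis, own scale per gene) in the 20 libraries, by group. Points are libraries, bars are the mean ± SD. Nr4a3 is high in the 6 LPS libraries alone, Rxra, Rara, Pparg, Ppard and Nr1d1 are low in them, and Nr1d2 differs little between groups.

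LPS moved most of the receptors, and most of them downward. In the SGC0946 arm 1 of the 9 tested members was called higher (35.8% of all genes were) and 7 were called lower (38.8% of all genes). In the DMSO arm 2 were called higher (35.4% of all genes) and 6 lower (38.7% of all genes). The member called higher in both arms was Nr4a3, which had to be high after LPS to be tested. Since 74.6% of all genes were called after LPS in the SGC0946 arm and 74.1% in the DMSO arm, the number of members called, in either direction, is not far from the background. The members' median change was -2.09 in the SGC0946 arm and -2.15 in the DMSO arm, against -0.07 over all genes in each. Scaling matters here. With library totals in place of TMM, the median over all genes was -0.81 in the SGC0946 arm and -0.80 in the DMSO arm, and the called genes split into 1977 higher and 8699 lower in the SGC0946 arm and 1980 higher and 8674 lower in the DMSO arm. Every member kept its direction under that scaling, and Nr1d2 then lay near the median of all genes, at -1.03 in the SGC0946 arm and -0.87 in the DMSO arm. No DMSO+LPS library and 3 of the 4 DMSO libraries have the word reanalyzed in their titles; with that word as a term in the fit, each member called after LPS was still called in the same direction.

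Nr4a3, also called NOR1, was nearly absent without LPS and was among the most abundant of the 10 transcripts with it. It had 811, 685 and 706 counts in the SGC0946+LPS libraries, against 4, 1, 5 and 5 counts in the SGC0946 libraries. The DMSO+LPS libraries held 398, 522 and 438 counts of it, against 2, 1, 1 and 2 counts in the DMSO libraries. No library of an LPS group came near an unstimulated one. Pooled counts gave a ratio of 328.5 in the SGC0946 arm (95% interval 198.7 to 587.9) and of 499.9 in the DMSO arm (229.1 to 1365), intervals that cover counting error only. The edgeR changes were 8.33 ± 0.21 and, in the DMSO arm, 8.83 ± 0.24. Since Nr4a3 had to be high after LPS to pass the filter, these values are a description. Both changes rest on an unstimulated level of at most 5 counts per library, and their difference between arms, -0.50 ± 0.58, did not pass (adjusted p = 0.955). A second Nr4a3 transcript, with 685 counts in all against 3596 for the one used, had 117 to 154 counts in the SGC0946+LPS libraries and 82 to 111 in the DMSO+LPS libraries.

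Nr4a2 (NURR1) moved the same way from a much lower level. Its CPM values were 2.73, 2.98 and 1.66 in DMSO+LPS libraries, against 0.252, 0.928, 0.876 and 0.225 in DMSO libraries, with no overlap. The change was 2.07 ± 0.50 (edgeR adjusted p = 0.00079). In the SGC0946 arm it had 0.366, 1.68 and 1.88 CPM after LPS, against 0.347, 0.820, 0.361 and 0.570 CPM without, and replicate 1 of the LPS group lay within the unstimulated range. There the change of 1.22 ± 0.60 did not pass (adjusted p = 0.072, and 0.014 to 0.445 over 16 alternatives); leaving out that replicate gave 1.70 and the lowest of these p-values. The change in the SGC0946 arm minus that in the DMSO arm was -0.86 ± 0.79 (adjusted p = 0.911), so the arms were not shown to differ.

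Nr4a1 (NUR77), the family member best known as an early response gene of T cells and macrophages, was lower at 3 h of LPS. DMSO+LPS libraries had 0.818, 0.639 and 0 CPM, against 2.27, 1.86, 1.59 and 1.73 CPM in DMSO libraries. These groups did not overlap, and the change was -1.87 ± 0.56 (edgeR adjusted p = 0.0050). SGC0946+LPS libraries had 0.854, 2.17 and 0.342 CPM, against 1.56, 3.35, 1.62 and 3.28 CPM in SGC0946 libraries. Replicate 2 of the LPS group lay inside the unstimulated range, and the change of -1.06 ± 0.45 passed narrowly (adjusted p = 0.039). Over 16 alternatives its adjusted p was 0.00067 to 0.165. The call was lost without SGC0946 replicate 2 or 4, without SGC0946+LPS replicate 1 or 3, without mice 2 and 4, and with only the compared groups in the fit. All these values rest on 0 to 46 counts per library. In the DMSO arm Nr4a3 and Nr4a2 were thus called higher at this time, and Nr4a1 lower. Any link of the TGACG matches to these responses was not tested.

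**Figure D2:**
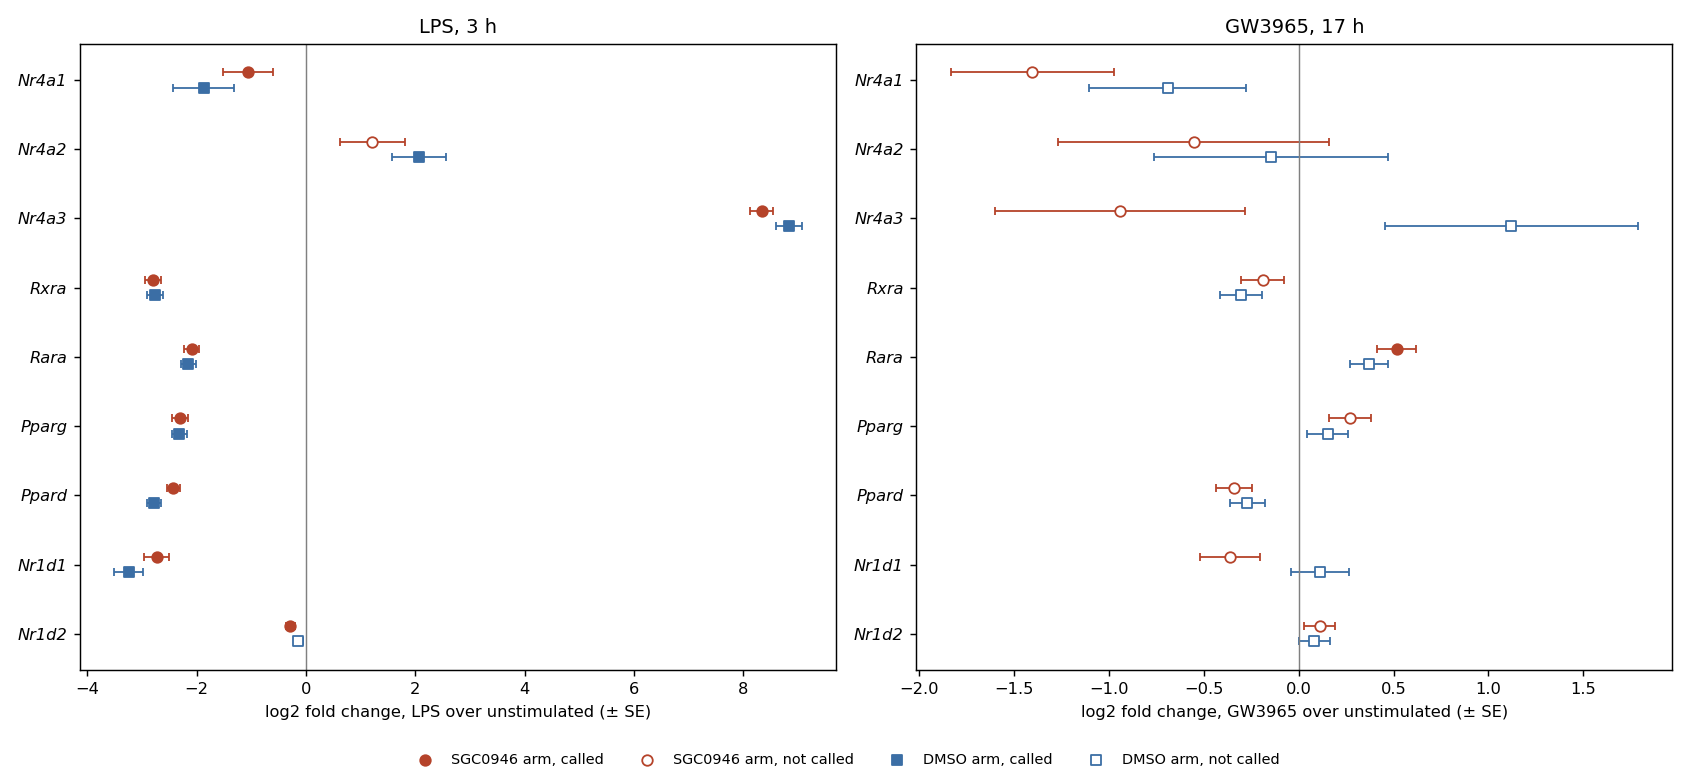
Change of the 9 tested receptors (log2 fold change ± SE, horizontal axis) after LPS (left) and after GW3965 (right), each over unstimulated cells of the same arm. Filled symbols passed at an adjusted p under 0.05. After LPS the arms lie farthest apart for Nr4a1 and Nr4a2, the genes with the widest error bars there, and after GW3965 only Rara in the SGC0946 arm passed; the axes have different ranges.

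Rxra, the shared partner, fell after LPS in both arms. It had 6.96, 9.50 and 7.17 CPM in SGC0946+LPS libraries, against 54.3, 55.7, 45.0 and 64.8 CPM in SGC0946 libraries. In the DMSO arm it had 9.55, 9.48 and 7.06 CPM after LPS, against 62.3, 55.1, 59.0 and 60.8 CPM without. Every LPS library was far below every unstimulated one, and the changes were -2.79 ± 0.15 in the SGC0946 arm and -2.76 ± 0.14 in the DMSO arm (edgeR adjusted p = 1.7e-13 and 1.2e-13), 6.93-fold and 6.77-fold lower. Rara, the retinoic acid receptor RARα, went with it. Its level was 4.11 ± 0.95 CPM in SGC0946+LPS cells and 17.8 ± 0.98 CPM in SGC0946 cells, and 4.13 ± 0.51 CPM in DMSO+LPS cells and 18.3 ± 1.55 CPM in DMSO cells, changes of -2.09 ± 0.14 and -2.15 ± 0.14. For Rara the groups did not overlap in either arm.

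Both PPAR genes fell as far. Pparg encodes PPARγ, the lipid-activated receptor that drives fat cell formation and alternative macrophage activation. It had 7.32, 6.74 and 8.54 CPM in SGC0946+LPS libraries, against 38.1, 35.7, 42.1 and 31.9 CPM in SGC0946 libraries, and 8.05, 8.31 and 5.12 CPM in DMSO+LPS libraries, against 36.8, 34.1, 36.9 and 36.2 CPM in DMSO libraries. The groups lay apart in both arms, with changes of -2.30 ± 0.14 and -2.31 ± 0.14 (edgeR adjusted p = 2.4e-12 and 1.9e-12). Ppard encodes PPARδ, a broadly expressed sensor of fatty acids. It had 9.24 ± 0.59 CPM in SGC0946+LPS cells and 50.0 ± 5.99 CPM in SGC0946 cells, and 7.26 ± 1.27 CPM in DMSO+LPS cells and 50.2 ± 1.51 CPM in DMSO cells. Its changes were -2.43 ± 0.12 and -2.78 ± 0.12, with no overlap of groups in either arm.

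The REV-ERB pair parted. Nr1d1 fell in both arms, to 0.976, 1.44 and 1.54 CPM in SGC0946+LPS libraries, against 7.64, 10.4, 7.04 and 9.62 CPM in SGC0946 libraries. In DMSO+LPS libraries it had 0.818, 0.532 and 1.11 CPM, against 8.39, 5.83, 9.08 and 7.43 CPM in DMSO libraries. The groups did not overlap, and the changes were -2.74 ± 0.24 and -3.25 ± 0.26 (edgeR adjusted p = 7.4e-10 and 2.2e-10). Nr1d1 shares 263 exon bases, 9.67% of its exon length, with Thra, the thyroid hormone receptor α gene on the opposite strand, and no strand setting is given in the sources used here, so its counts are uncertain to that extent. Thra changed less, by -0.88 ± 0.19 and -0.91 ± 0.19. Nr1d2 stayed near its unstimulated level, at 60.8, 55.0 and 60.1 CPM in SGC0946+LPS libraries, against 74.5, 68.4, 66.9 and 76.0 CPM in SGC0946 libraries, where the change of -0.29 ± 0.09 passed (adjusted p = 0.0054; over 16 alternatives 5.3e-10 to 0.054, the last without mice 2 and 4). In the DMSO arm it had 65.3, 73.7 and 64.8 CPM after LPS, against 72.6, 73.5, 72.8 and 81.0 CPM without, the ranges overlapped, and the change of -0.14 ± 0.08 did not pass (adjusted p = 0.142; over 16 alternatives 5.4e-09 to 0.376, called with library totals alone).

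Vdr, the vitamin D receptor, was close to the limit of detection in every group. All 20 libraries held 0 to 8 counts of it, and none passed the level of 0.962 CPM used in the filter. The 3 DMSO+LPS libraries held 0 counts, against 2, 4, 6 and 8 counts in DMSO libraries, which is at least 3.02-fold lower when 0 is read as 3 counts over the group. SGC0946+LPS libraries held 0, 1 and 2 counts, against 2, 3, 7 and 4 counts in SGC0946 libraries, a ratio of 0.42 with a 95% interval of 0.078 to 1.47 that includes no change. Fitted without the filter, the DMSO arm passed (edgeR adjusted p = 0.0073) and the SGC0946 arm did not (adjusted p = 0.322). The difference of these changes did not pass (adjusted p = 0.98).

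The other genes of the circadian clock were read beside Nr1d1 and Nr1d2. All 16 measured genes of the 17 listed were called after LPS in each arm, 12 lower and 4 higher. Per2 and Ciart, among the lower ones, passed the filter through 14 and 12 libraries, none from LPS-treated cells. These 2 had to be higher without LPS to be tested, so their part in the count is a description. Of all genes, 74.6% were called in the SGC0946 arm and 74.1% in the DMSO arm, with 38.8% and 38.7% lower. The clock genes' median was -1.83 in the SGC0946 arm and -1.74 in the DMSO arm. The period gene Per1 fell by 3.59 on the log2 scale in the SGC0946 arm and by 3.09 in the DMSO arm, Bhlhe41 (DEC2) by 3.29 and 3.17, and the PAR-domain factor Tef by 2.96 and 2.74. Nfil3 (E4BP4), a repressor that competes with such factors and is itself a known target of REV-ERBα, rose by 2.66 ± 0.15 in the SGC0946 arm and by 2.90 ± 0.16 in the DMSO arm. It averaged 74.3 CPM in SGC0946+LPS cells and 11.7 CPM in SGC0946 cells, and 67.1 CPM in DMSO+LPS cells and 8.97 CPM in DMSO cells. Arntl (BMAL1), the best known target of REV-ERB repression, fell by 1.29 and 1.27. With library totals Nfil3 was still higher, while Clock and Csnk1d turned to lower in both arms. Cry1 was then called in neither arm, at -0.003 in the SGC0946 arm and 0.07 in the DMSO arm.

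**Figure D3:**
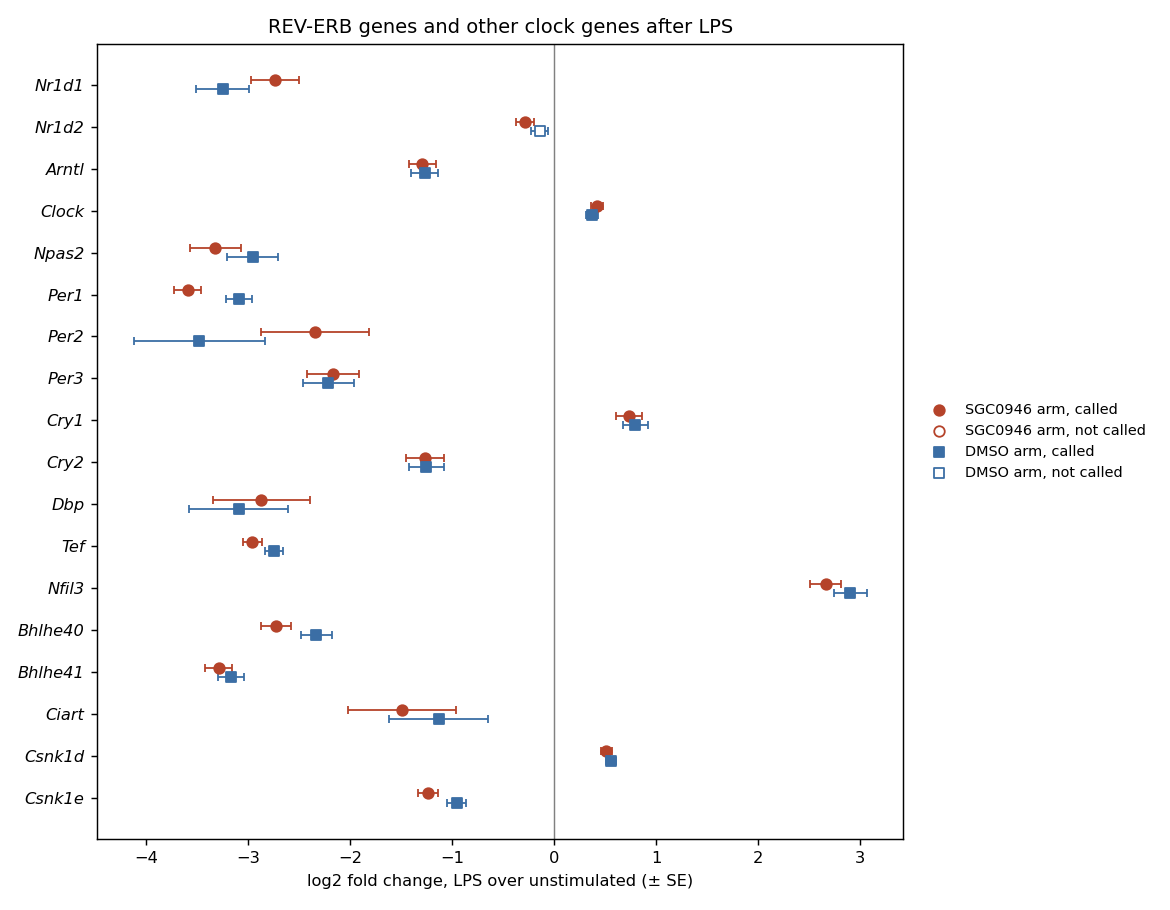
Change of Nr1d1, Nr1d2 and the 16 other measured clock genes after LPS (log2 fold change ± SE, TMM scaling), over unstimulated cells of the same arm. Filled symbols passed. Nr1d1 lies with Per1, Bhlhe41, Dbp, Npas2 and Tef at the low end, Per2 is lowest in the DMSO arm, and Nfil3 alone is far to the right. Per2 and Ciart had to be higher without LPS to be tested. With library totals Clock and Csnk1d turn to lower in both arms, and Cry1 is no longer called in either.

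Other receptor genes moved in the same direction as most of the 10. Of 36 listed, 14 were measured, and after LPS 10 were called lower and 1 higher in each arm. Nr1i3, Thrb and Nr3c2 passed the filter through 13, 7 and 3 libraries, none from LPS-treated cells. They had to be higher without LPS to be tested, so their part in these counts is a description. Over all genes 38.8% were called lower in the SGC0946 arm and 38.7% in the DMSO arm, and 35.8% and 35.4% higher. Rora, a receptor that activates the sites REV-ERBs repress, fell by 2.10 in the SGC0946 arm and 1.79 in the DMSO arm. Rxrb, the second RXR gene, fell by 1.40 and 1.28, and the orphan receptor genes Nr2c2 and Nr2f6 fell by 1.56 and 2.38 in the SGC0946 arm and by 1.81 and 2.36 in the DMSO arm. Nr3c1, the glucocorticoid receptor gene, rose by 1.29 ± 0.07 and 1.39 ± 0.07. The LXRα gene Nr1h3 also rose, by 1.66 ± 0.12 in the SGC0946 arm and 1.93 ± 0.12 in the DMSO arm, while its partner gene Rxra fell.

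Of the coregulator genes, 18 of 19 were measured. After LPS 9 rose and 6 fell in the SGC0946 arm, and 10 rose and 6 fell in the DMSO arm. The shares over all genes were 35.8% and 35.4% higher, and 38.8% and 38.7% lower. Tbl1x, a subunit of a corepressor complex, rose by 1.40 ± 0.06 in the SGC0946 arm and 1.46 ± 0.05 in the DMSO arm. Ncoa7 rose by 2.09 ± 0.07 and 1.87 ± 0.07, and Med1, the Mediator subunit that contacts nuclear receptors, by 1.14 ± 0.06 and 1.07 ± 0.06. These 3 kept their direction with library totals, whereas Ncoa3, Ncoa6, Nrip1 and Crebbp, also called higher, had negative changes in both arms. Of these, Ncoa3 in the DMSO arm and Nrip1 in the SGC0946 arm were not called with library totals.

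With TMM scaling, genes that respond to the receptors did not move as one group with the receptor transcripts. Of 20 PPAR-responsive genes, 16 were measured. After LPS 3 were called higher and 4 lower in the SGC0946 arm, and 4 higher and 3 lower in the DMSO arm. Over all genes 35.8% and 35.4% were called higher, and 38.8% and 38.7% lower. The medians of the list were -0.05 and -0.06, close to that of all genes. Acadm, an enzyme of fatty acid oxidation, fell by 0.94 and 0.91, and Olr1, the scavenger receptor LOX-1, passed the filter through 6 libraries, all from LPS-treated cells, so it had to be higher there to be tested; its changes were 7.79 ± 0.35 and 7.01 ± 0.38. Acadl was higher by 0.51 and 0.47 with TMM and lower with library totals. Fabp4, Fabp5, Cd36, Cpt1a and Lpl had positive changes with TMM and negative ones with library totals in both arms, while Olr1 stayed higher. The median over all genes was also negative with library totals, at -0.81 and -0.80. Angptl4 had changes of -4.84 and -3.65 with TMM. It passed the filter through 13 libraries, none from LPS-treated cells, so it had to be higher without LPS to be tested. Of 14 retinoid genes, 4 were measured: Tgm2, a transglutaminase induced by retinoic acid, rose by 2.40 ± 0.09 and 2.42 ± 0.09, while Dhrs3, a retinal reductase, fell by 1.21 and 1.19 and Rarres2 by 1.13 and 0.64.

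The cAMP and calcium dependent factors, many of which act on NR4A promoters in other settings, were all measured. After LPS 3 rose and 10 fell in each arm, beside 35.8% and 35.4% of all genes called higher and 38.8% and 38.7% lower. Of those that rose, Creb1 did not pass with library totals, at 0.03 in the SGC0946 arm and -0.04 in the DMSO arm. Crem and Crtc2 stayed higher. The coactivator gene Crtc2 rose by 1.25 in the SGC0946 arm and 1.20 in the DMSO arm. Mef2d fell by 2.77 and 2.68, Nfatc2 by 2.66 and 2.81, and Nfatc1 by 1.62 and 1.52.

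SGC0946 changed 1 of the 9 tested receptors in 1 of the 3 conditions. Nr4a3 was higher in SGC0946+LPS libraries, at 99.0, 82.4 and 121 CPM, than in DMSO+LPS libraries, at 54.3, 55.6 and 60.6 CPM. The lowest SGC0946+LPS library stood above the highest DMSO+LPS library. The change was 0.82 ± 0.13 (edgeR adjusted p = 0.00035), 1.77-fold, and the pooled count ratio of 1.74 had a counting interval of 1.62 to 1.86. After LPS 3.86% of all genes were called higher with SGC0946, and 7.13% in either direction. It was higher in the SGC0946 culture of each of the 3 mice. The call held in each of 15 alternatives (adjusted p 2.0e-06 to 0.0042), among them the fits that left out 1 library or mice 2 and 4. None of the LPS libraries carries the word reanalyzed in its title, which some DMSO libraries of the other conditions do. Neutrophil and granulocyte markers, 14 genes of which 6 were tested, summed to 45.0 to 51.7 CPM in SGC0946+LPS libraries, against 85.4 to 105.6 CPM in DMSO+LPS libraries, and dendritic cell markers to 7.08 to 7.86 CPM, against 6.39 to 7.78 CPM; their part in the result was not tested.

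The other 8 members were not called between SGC0946+LPS and DMSO+LPS cells. Ppard had 9.88, 9.14 and 8.71 CPM in SGC0946+LPS libraries, against 8.18, 7.78 and 5.81 CPM in DMSO+LPS libraries. These did not overlap, yet the change of 0.35 ± 0.15 did not pass (edgeR adjusted p = 0.188). Nr1d2 was lower without overlap, by -0.22 ± 0.10 (adjusted p = 0.184), and Nr4a1 had a change of 1.24 ± 0.68 and Nr4a2 of -0.97 ± 0.53 (adjusted p = 0.313 and 0.301), each from at most 28 counts per library. For Rxra, Rara and Pparg the changes were between -0.14 and 0.04, with SEs of 0.18 to 0.19.

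Without a stimulus edgeR called no member between SGC0946 and DMSO cells, against 8.72% of all genes. At an unadjusted p under 0.05 there was 1 member, against 2737 of all 12013 genes, and DESeq2 called 0, against 9.81%. The member with the unadjusted p was Nr4a3, with 15 counts in all in SGC0946 cells and 6 in DMSO cells, a change of 1.32 ± 0.61 (edgeR adjusted p = 0.199). For Rxra, Rara, Pparg, Ppard and Nr1d2 the changes lay between -0.11 and 0.03, with SEs of 0.08 to 0.10. Nr4a1 had 18, 45, 18 and 46 counts in SGC0946 libraries 1 to 4, against 27, 28, 20 and 23 counts in DMSO libraries. Nr1d1 had 88, 139, 78 and 135 counts in SGC0946 libraries, against 100, 88, 114 and 99 counts in DMSO libraries. For both genes the SGC0946 libraries of mice 2 and 4 were above all DMSO libraries, in counts and in CPM. Without mice 2 and 4 the change of Nr4a1 was -0.26 in place of 0.43, and that of Nr1d1 -0.25 in place of 0.19, and none of these was called.

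After GW3965 edgeR called no member between SGC0946 and DMSO cells, against 3.64% of all genes called. At an unadjusted p under 0.05 there were 0 members, against 1935 of all 12013 genes, and DESeq2 called 0, against 4.79%. Nr1d1 was the member whose groups did not overlap, with 6.42, 6.99 and 6.95 CPM in SGC0946+GW3965 libraries, against 8.84, 8.38 and 7.52 CPM in DMSO+GW3965 libraries; the change of -0.28 ± 0.17 did not pass (edgeR adjusted p = 0.437). All DMSO+GW3965 libraries and no SGC0946+GW3965 library have reanalyzed in the title, so that word and the inhibitor cannot be told apart in this comparison.

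**Figure D4:**
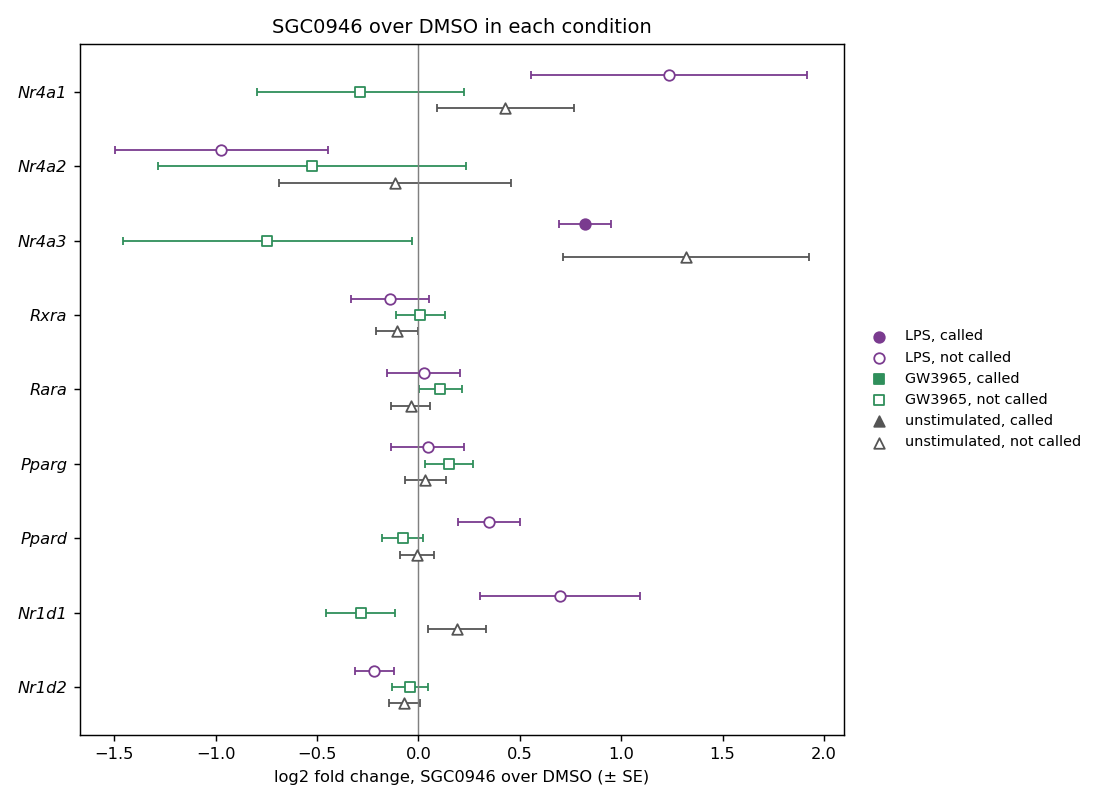
Change of the 9 tested receptors with SGC0946 over DMSO (log2 fold change ± SE) after LPS, after GW3965 and without a stimulus. The filled symbol, Nr4a3 after LPS at 0.82, is the single change that passed; the NR4A genes and Nr1d1 have wider errors and lower counts than the other members.

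GW3965 left most of the receptors near their unstimulated levels. In the SGC0946 arm 1 of 9 members was called, upward, against 2.42% of all genes called and 1.32% called higher. In the DMSO arm edgeR called 0, against 2.55% of all genes. There 3 members had an unadjusted p under 0.05, against 1976 of all 12013 genes, and DESeq2 called 1, against 4.29%. The member called in the SGC0946 arm was Rara, with 26.6, 27.8 and 21.9 CPM in SGC0946+GW3965 libraries, against 16.9, 17.7, 17.3 and 19.2 CPM in SGC0946 libraries. All 3 treated libraries were above all 4 untreated ones, and the change was 0.52 ± 0.10 (edgeR adjusted p = 0.0061), 1.43-fold. Over 16 alternatives the adjusted p was 0.00027 to 0.109, and the call was lost with only the compared groups in the fit and without mice 2 and 4.

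In the DMSO arm Rara had 23.2, 24.6 and 23.1 CPM after GW3965, against 20.6, 17.6, 17.5 and 17.5 CPM without it, again with no overlap. The change of 0.37 ± 0.10 missed the threshold (edgeR adjusted p = 0.053; over 16 alternatives 0.015 to 0.402). It passed with the mouse as a replicate block (0.030), in DESeq2, with only the compared groups, with the transcript of highest RPKM and without DMSO replicate 1. The difference between the arms was 0.15 ± 0.14 and did not pass (adjusted p = 1.00). Rxra had a change of -0.19 ± 0.11 in the SGC0946 arm and -0.30 ± 0.11 in the DMSO arm (adjusted p = 0.469 and 0.152; over 16 alternatives each 0.217 to 0.862 and 0.0286 to 0.452, the DMSO arm called with only the compared groups).

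Ppard was lower after GW3965 in both arms without passing. It had 39.3, 44.7 and 34.2 CPM in SGC0946+GW3965 libraries, against 43.9, 58.0, 47.6 and 50.5 CPM in SGC0946 libraries, ranges that overlapped at 1 library. The change was -0.34 ± 0.09 (edgeR adjusted p = 0.060; over 16 alternatives 0.015 to 0.282). It passed with the mouse as a replicate block (0.024), in DESeq2, with library totals, with no filter, and without SGC0946 replicate 1 or SGC0946+GW3965 replicate 2. In the DMSO arm it had 41.6, 42.0 and 41.4 CPM, against 48.2, 51.2, 49.9 and 51.5 CPM, with no overlap and a change of -0.27 ± 0.09 (adjusted p = 0.128; over 16 alternatives 0.0061 to 0.314, called with only the compared groups). Pparg changed by 0.27 ± 0.11 in the SGC0946 arm and 0.15 ± 0.11 in the DMSO arm (adjusted p = 0.258 and 0.540). Nr4a1 was lower without overlap in both arms, with 31 counts over SGC0946+GW3965 libraries and 127 over SGC0946 libraries, and its changes of -1.40 ± 0.43 and -0.69 ± 0.41 did not pass (edgeR adjusted p = 0.095 and 0.440). Over 16 alternatives the adjusted p in the SGC0946 arm was 0.0444 to 0.661, the lowest from DESeq2, which called it.

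The PPAR-responsive list rose in part after GW3965. Of 16 measured genes 4 were called higher in the SGC0946 arm and 5 in the DMSO arm, and none lower in either. Over all genes 1.32% were called higher in the SGC0946 arm and 1.35% in the DMSO arm. Lpl, lipoprotein lipase, rose by 0.83 ± 0.14 and 0.95 ± 0.14 and is also known as an LXR target. Plin2, which coats lipid droplets, rose by 0.53 ± 0.09 and 0.55 ± 0.09, and Cpt1a, which admits fatty acids to mitochondria, by 0.32 ± 0.05 and 0.29 ± 0.05. No clock gene was called in either arm after GW3965, against 2.42% of all genes in the SGC0946 arm and 2.55% in the DMSO arm.

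Neither stimulus response of a member was shown to differ between the arms. For LPS no member passed the test of the difference in edgeR, with 0.00832% of all genes called. There 0 members had an unadjusted p under 0.05, against 835 of all 12013 genes, and DESeq2 called 0, against 34 genes. For GW3965 edgeR and DESeq2 called 0 members, and 0% of all genes. With an unadjusted p under 0.05 there were 2 members, against 291 of all 12013 genes. Those 2 were Nr4a3, at -2.06 ± 0.94 from 1 to 5 counts per library, and Nr1d1, at -0.47 ± 0.22.

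Across the 20 libraries Rxra, Rara, Pparg, Ppard and Nr1d1 rose and fell together, with Pearson correlations of their log2 CPM between 0.942 and 0.985, and each was opposed to Nr4a3, at -0.954 to -0.987. The points fall into the 6 LPS libraries at 1 end and the other 14 at the other. Between 1946 and 2587 genes exceeded a correlation of 0.9 with each of these 6 genes. The genes nearest to Nr4a3 were Sgcb, Il1rn and Tank (0.994 each). Nearest to Rxra were Sec14l1, Ip6k1 and Eif4ebp2 (0.995 each), to Rara Tmem86a, Fbxo32 and Akap10, to Pparg Kcnk6 and the clock gene Bhlhe41, to Ppard Slc45a4, Fam160a2 and Gnpda1, and to Nr1d1 Zfp362, A130010J15Rik and Kmt5c. No gene exceeded 0.9 with Nr4a1, Nr4a2 or Nr1d2, whose nearest were Sesn2, Fam204a and Zfp850 at 0.853, 0.838 and 0.857.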

How the data were processed

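Read counts per RefSeq transcript and library, and RPKM values of the same transcripts, were deposited by the authors. Per the submitters' processing notes, reads (50 bp from 1 end, per the labels) were handled with STAR 2.5.2b, SAMtools 1.3.1 and mm10; the counting program, its annotation and whether strand was used: not given in the sources used here. Of 35745 transcripts, 35440 were named from RefSeq (GRCm38.p6); the 305 unnamed held 1.17% of counts and were left out. Per symbol, 1 transcript was used, that of the highest total count; for Rara 2 tied. Shared reads may be counted for several transcripts.

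Counts were fitted with edgeR 4.0.16 (R 4.3.3): TMM, filterByExpr with a minimum of 10, all 20 libraries, 1 mean per group, quasi-likelihood F test, 9 comparisons. SEs were derived from each log2 fold change and its F value. Alternatives included DESeq2 1.42.0. The script was tested on simulated counts. Deposited RPKM values served to compare genes and to choose an alternative transcript.

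The members and gene lists were chosen with earlier results of these data known. All members are named. From each list, up to 4 called genes with the smallest adjusted p per comparison are named. Others were singled out after their values were seen (Arntl, Per2, Ciart, Dbp, Npas2, Rxrb, Nr1i3, Nr3c2, Clock, Csnk1d, Cry1, Ncoa3, Ncoa6, Nrip1, Crebbp, Fabp4, Cd36, Angptl4, Creb1, Crem). For each member, the 3 genes with the highest correlation are named, or the first where none exceeded 0.9. Some genes that this rule names are not reported here.

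The deposited sample sheet lists the replicate number as the mouse. Deviations from group means correlated with a median of 0.205 in 46 same-mouse pairs (39 over 0.1) and -0.121 in 120 pairs of different mice, so the mouse was fitted as a block in an alternative. All mice are of 1 strain. The main fit, without that block, took libraries as independent, so its p-values rest on the spread between libraries within groups. They do not use the pairing by mouse.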

Additional observations from a re-analysis of the deposited data

Results flagged for a closer look

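In 20 groups of 4 libraries (each member in both unstimulated groups), a lone library lay far from the rest for 2 genes; chance gives about 1 in 20 such groups. Rara had 20.6 CPM in DMSO replicate 1 and 17.6, 17.5 and 17.5 CPM in the others, a gap of 0.952 of the group's range. Without that library the Rara change after GW3965 in the DMSO arm was 0.43 and passed (edgeR adjusted p = 0.0406). Nr1d2 had 81.0 CPM in DMSO replicate 4 and 72.6, 73.5 and 72.8 CPM in the others, a gap of 0.887 of the range. Leaving out either library called no other member.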

How the results depend on the processing

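Of 1403 alternative values of member changes, 1301 kept direction and side of the threshold, 9 lost a call, 18 gained one and 75 changed sign. None of the 18 called changes changed sign; 3 lost the call in some alternative (Nr4a1 and Nr1d2 after LPS, and Rara after GW3965, all in the SGC0946 arm). The cause was not tested in any of these cases. With the mouse as a replicate block, 2 members were called after GW3965 in the SGC0946 arm, in place of 1, and 1 in the DMSO arm, in place of 0. Of all genes 3.30% and 4.42% were then called, in place of 2.42% and 2.55%. The block changed no other count of members called. After GW3965 in the SGC0946 arm, DESeq2 called 3 members (and 3.38% of all genes), library totals 2 (2.55%), no filter 2 (1.93%) and only the compared groups 0 (0.76%). Fits that left out 1 library called 1 to 2 (1.10% to 3.99%), and the fit without mice 2 and 4, chosen after seeing the data, 0 (1.49%). In the DMSO arm, DESeq2 called 1 (and 4.29% of all genes), the fit of only the compared groups 3 (7.8%) and the transcript of highest RPKM 1 (2.57%). Fits that left out 1 library called 0 to 1 there (1.00% to 2.86%).

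Signs changed only for changes that were not called. Without mice 2 and 4, SGC0946 over DMSO was -0.26 for Nr4a1 and -0.25 for Nr1d1 without a stimulus, -0.00875 for Rara after LPS and -0.0997 for Rxra after GW3965. GW3965 over unstimulated was then 0.0674 for Nr4a2 in the SGC0946 arm and -0.0848 for Nr1d1 in the DMSO arm. The difference between arms was 0.0435 for Rxra (LPS), and 0.0721 for Nr4a2 and -0.0233 for Nr1d2 (GW3965). With the word reanalyzed as a term, SGC0946 over DMSO was 1.21 for Nr4a2 and 0.0269 for Rara without a stimulus, and 1.07 for Nr4a2 and -0.0397 for Rxra after GW3965; the difference between arms was 0.00292 for Rxra (LPS) and -0.0118 for Nr1d2 (GW3965). Ppard without a stimulus was 0.00571 in DESeq2, 0.00942 with library totals, 0.00543 with RLE factors and 0.00541 with only the compared groups. Rxra after GW3965 was -0.000739 with no filter. The Pparg difference between arms for LPS was -0.00229 in DESeq2, -0.00323 with library totals, -0.000794 with RLE factors, -0.00331 with no filter and -0.012 with the transcript of highest RPKM.

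Fits that left out 1 library spanned 0 for these changes. For SGC0946 over DMSO they were -0.41 to 0.25 for Nr4a2, -0.0773 to 0.0216 for Rara, -0.0329 to 0.10 for Pparg and -0.0862 to 0.0505 for Ppard without a stimulus, and -0.17 to 0.14 for Rara and -0.14 to 0.18 for Pparg after LPS. After GW3965 they were -0.56 to 0.0217 for Nr4a1, -1.05 to 0.44 for Nr4a2, -0.0546 to 0.12 for Rxra, -0.17 to 0.0112 for Ppard and -0.12 to 0.0743 for Nr1d2. For GW3965 over unstimulated DMSO cells they were -1.11 to 0.38 for Nr4a2 and -0.00486 to 0.20 for Nr1d1. For the difference between arms they were -0.0876 to 1.27 for Nr4a1, -0.21 to 0.0608 for Rxra, -0.13 to 0.18 for Rara and -0.17 to 0.14 for Pparg (LPS), and -0.94 to 0.55 for Nr4a2, -0.17 to 0.0188 for Ppard and -0.0518 to 0.14 for Nr1d2 (GW3965).

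The count of all genes called moved by more than 1.5 times in several alternatives. SGC0946 against DMSO without a stimulus had 1048 genes, 196 with the word reanalyzed as a term, 235 without mice 2 and 4, and 578 without SGC0946 replicate 4. After GW3965 it had 437 genes, 66 with the reanalyzed term and 703 with the replicate block, and after LPS 856 genes and 432 without DMSO+LPS replicate 2. GW3965 against unstimulated had 291 genes in the SGC0946 arm and 306 in the DMSO arm, and with only the compared groups 88 and 888. The difference of LPS responses had 1 gene, and 34 in DESeq2. Nr4a1, Nr4a2, Vdr and unstimulated Nr4a3 have few counts, and depth limits what can be said of them.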

Other observations

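Outside the 10 receptors, a few genes of the related lists were called with SGC0946. Thrb, the thyroid hormone receptor β gene, was higher in all 3 conditions: it averaged 1.15 CPM in SGC0946+LPS cells and 0.177 CPM in DMSO+LPS cells (log2 change 2.42 ± 0.64), 1.59 CPM in SGC0946+GW3965 cells and 0.496 CPM in DMSO+GW3965 cells (1.67 ± 0.42), and 1.47 CPM in SGC0946 cells and 0.467 CPM in DMSO cells (1.62 ± 0.36). It passed the filter through 7 libraries, all of the SGC0946 arm, and so had to be high there to be tested: its values are a description. Tbl1xr1, a subunit of a corepressor complex, was higher by 0.43 ± 0.11 after LPS and 0.39 ± 0.09 without a stimulus, and the clock repressor gene Bhlhe40 by 0.48 ± 0.12 after GW3965 and 0.54 ± 0.10 without a stimulus. Prkacb, a catalytic subunit of the cAMP-dependent kinase, fell by 0.23 and 0.21 on the log2 scale after LPS and without a stimulus. No SGC0946 library has reanalyzed in its title, while all DMSO+GW3965 libraries and every DMSO library except replicate 4 do. For these genes that word and the inhibitor cannot be told apart after GW3965, and only in part without a stimulus. With the word as a term, all genes called went from 437 to 66 after GW3965 and from 1048 to 196 without a stimulus. Among PPAR-responsive genes, Olr1 was higher by 0.84 ± 0.20 and Cpt1a lower, at -0.26 ± 0.05, in SGC0946+LPS cells than in DMSO+LPS cells.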
